A study of Gallus gallus with 24 samples.

Results

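The expression of MYC and of genes that build ribosomes was examined in peripheral blood mononuclear cells (PBMCs) of chickens. The genes were chosen by their symbols from a list of 45, of which 38 were found in the gene column of the count table, each as 1 entry, among 23910 entries in all. They are MYC, 3 nucleolar chaperones, 5 proteins of small nucleolar ribonucleoproteins (snoRNPs), 3 subunits of RNA polymerase I, 13 factors of the small ribosomal subunit and 13 factors of the large subunit. FBL, POLR1A, HEATR1, TSR1, PPAN, DDX21 and DDX56 were not found by symbol and were not analysed here.

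MYC is a transcription factor that switches on genes of cell growth, among them many genes of ribosome production. In the nucleolus, RNA polymerase I transcribes the ribosomal RNA precursor, snoRNPs guide its methylation and pseudouridylation, and separate sets of assembly factors turn it into the small and the large subunit. Resting lymphocytes make few ribosomes, and lymphocytes that are stimulated with a mitogen enlarge their nucleoli before they divide.

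PBMCs of 6 Cobb500 broilers, which were 4 to 6 weeks old, were cultured for 24 h under 4 conditions. They received the lectin concanavalin A (conA, a T cell mitogen used here as positive control) at 10 µg/mL, 1 live strain of Bacillus subtilis (BS) or of Bacillus velezensis (BV) at 3 bacteria per PBMC, or medium alone as the untreated control. All cultures contained chicken serum and no antibiotics and were kept at 41 °C, and the experimental duplicates of a chicken were pooled before RNA isolation, so that each of the 24 libraries stands for 1 chicken under 1 condition. PBMCs are a mixture of cells, and in bulk libraries of them more cells of a type and more RNA per cell cannot be told apart.

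The libraries held between 12170873 and 31242160 counted reads (median 23952895), and between 14492 and 17054 of the 20266 genes tested had at least 1 read. T cell markers were abundant in all libraries (summed over 13 entries, 94603 to 114493 normalized counts after conA and 84568 to 112552 in the control). Markers of thrombocytes, the nucleated platelets of birds, differed widely between chickens and were lower after conA than in the control in 5 of 6 chickens. For chickens 3 to 6 the conA libraries carry the numbers 57 to 60, apart from the other libraries of these chickens, while those of chickens 1 and 2 stand beside them. Of the 38 genes, none passed a test of whether the conA effect differed between these chickens (edgeR, adjusted p under 0.05), against 0.0543% of all genes tested, and at an unadjusted p under 0.05 it was 1 gene. Of all 20266 genes tested, 1008 had such a p.

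All 38 genes passed the filter of at least 2 reads over the 24 libraries. Their mean level over all libraries ranged between 79.4 normalized counts for GAR1 and 20760.4 for NCL. Normalized counts are read counts divided by a size factor of the library and are not divided by gene length, so levels are compared between samples and not between genes. Of all counted reads, the 38 genes took 0.356% to 0.501% in the conA libraries (median 0.453%), 0.240% to 0.330% in the BS libraries, 0.248% to 0.331% in the BV libraries and 0.271% to 0.346% in the control (median 0.314%). The lowest conA library thus lay above the highest control library. NCL and NPM1 together made up 42.2% to 49.0% of the normalized counts of the 38 genes after conA and 36.5% to 41.2% in the control.

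ConA raised MYC and 11 of the 37 ribosome genes, and none of the 38 fell. These 12 genes passed edgeR's quasi-likelihood test at a Benjamini-Hochberg adjusted p under 0.05 (hereafter "passed"), a direction and threshold reached by 2.2% of all 20266 genes tested and by 3.31% of the 10660 genes whose normalized counts averaged 50 or more (expressed genes). In either direction, 2.34% of all genes passed. The fold changes were moderate: the median log2 fold change (FC) of the 38 genes was 0.32, against -0.03 for all genes tested, and the largest was 1.08 for NPM1. None reached the absolute log2 FC above 1.5 that the study's methods add to the adjusted p, which 0.873% of all genes did. The estimate was positive for 37 genes and negative for POLR1C alone, under each of the 4 scalings that were tried, and 22 genes had an unadjusted p under 0.05, all of them higher. Of all 20266 genes, 2592 had such a p in either direction. With the chicken as a block the number that passed was 17, all of them higher. In that fit 714 of the 20266 genes passed with higher and 526 with lower values (6.12% in either direction).

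**Figure D1:**
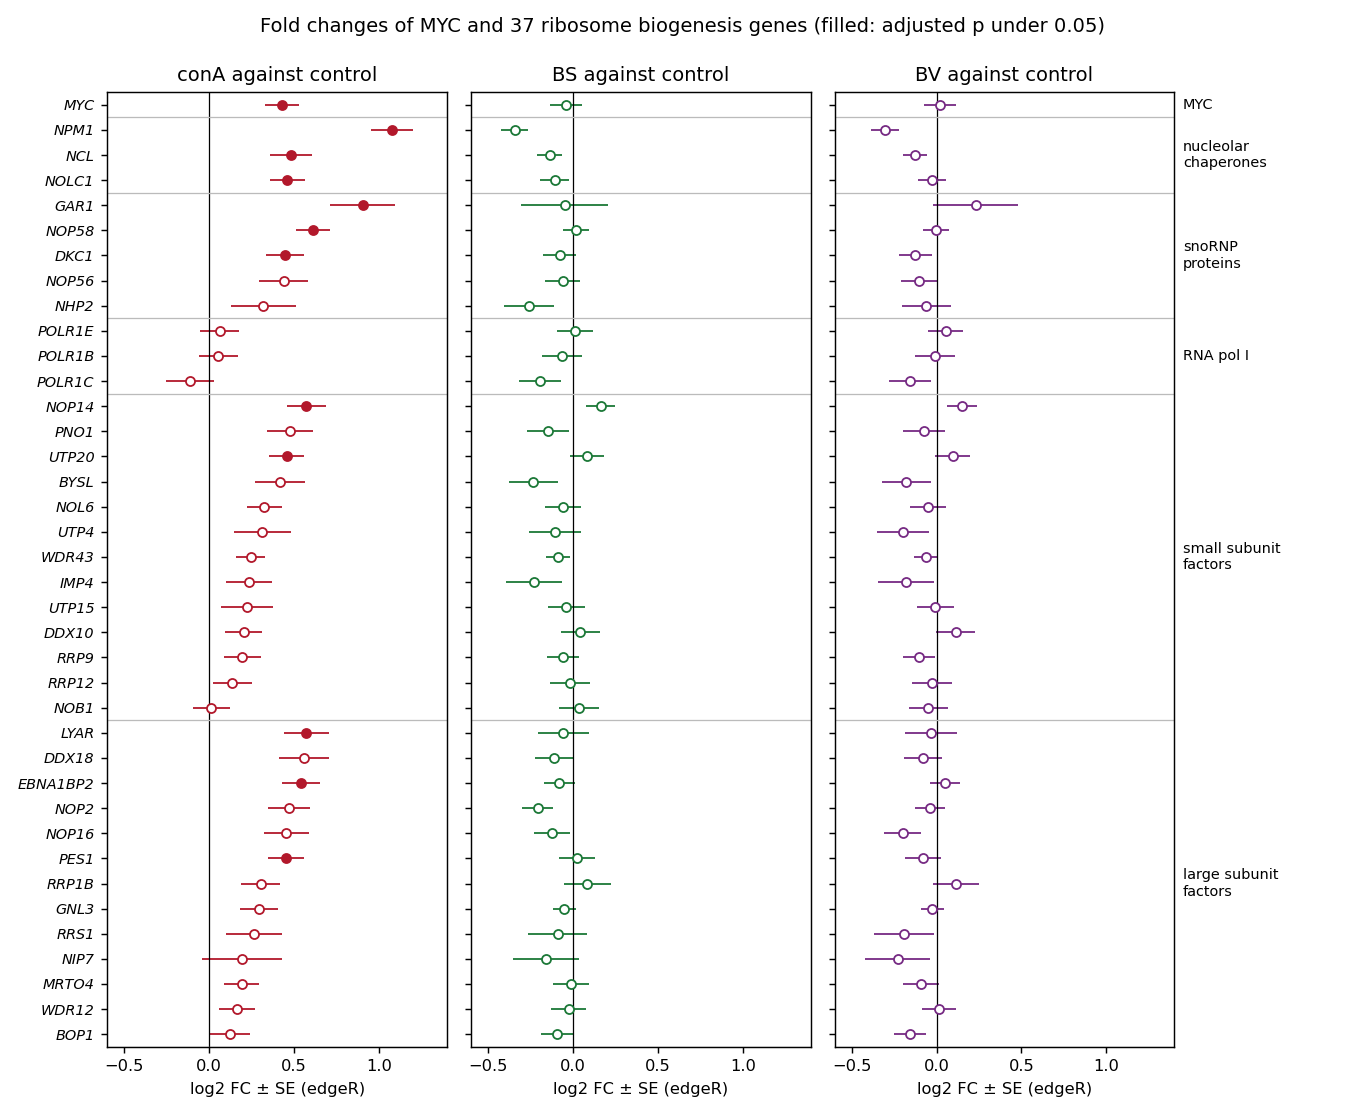
Fold change of each of the 38 genes against the control (horizontal axis, log2 FC, error bars are the SE of the edgeR fit) after conA, BS and BV, from left to right, with genes grouped by role and ordered by their conA value. Filled points passed the test and open points did not: 12 genes are filled after conA and none after BS or BV.

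MYC (ENSGALG00000033631) had between 3623 and 5254 normalized counts after conA (median 4264), against 3000.3 to 3422 in the control (median 3243). All 6 conA libraries were above all control libraries, and the ratio within chicken was positive in 6 of 6, between 0.12 and 0.79 on the log2 scale, lowest in chicken 1 and highest in chicken 4. MYC rose 1.35-fold (log2 FC 0.43 ± 0.10 SE, edgeR adjusted p = 0.0252). Without chicken 2, 3, 4, 5 or 6 it no longer passed in the fit without a block, with log2 FC between 0.35 and 0.45. MYC also did not pass when libraries were scaled by total counts only.

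NPM1 (ENSGALG00000002197), which encodes nucleophosmin, an abundant chaperone of the nucleolus, had the largest FC of the 38. It had 15113 to 26657 normalized counts after conA (median 19627), against 8665 to 10022 in the control (median 9636). The groups were far apart, since the lowest conA library exceeded the highest control library. NPM1 rose 2.11-fold (log2 FC 1.08 ± 0.12 SE, edgeR adjusted p = 3.15e-05), with ratios within chicken between 0.78 and 1.41.

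NCL (ENSGALG00000032930) encodes nucleolin, an RNA-binding protein of the nucleolus. It had 21982 to 38949 normalized counts after conA (median 25420.0) and 18109 to 23459 in the control (median 18725). The groups overlapped, although NCL was higher after conA in 6 of 6 chickens, and chicken 4 had the highest conA value. NCL rose 1.39-fold (log2 FC 0.48 ± 0.12 SE, edgeR adjusted p = 0.0462). Without chicken 4 its log2 FC was 0.33, and it passed in the fit without a block only when no chicken or chicken 1 was left out.

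NOLC1 (ENSGALG00000041124), known as Nopp140, is a chaperone of snoRNPs. Its normalized counts were 1471 to 2147 after conA (median 1791), against 1178 to 1436 in the control (median 1281), with no overlap. NOLC1 rose 1.38-fold (log2 FC 0.46 ± 0.10 SE, edgeR adjusted p = 0.0204). All 3 nucleolar chaperones thus passed.

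**Figure D2:**
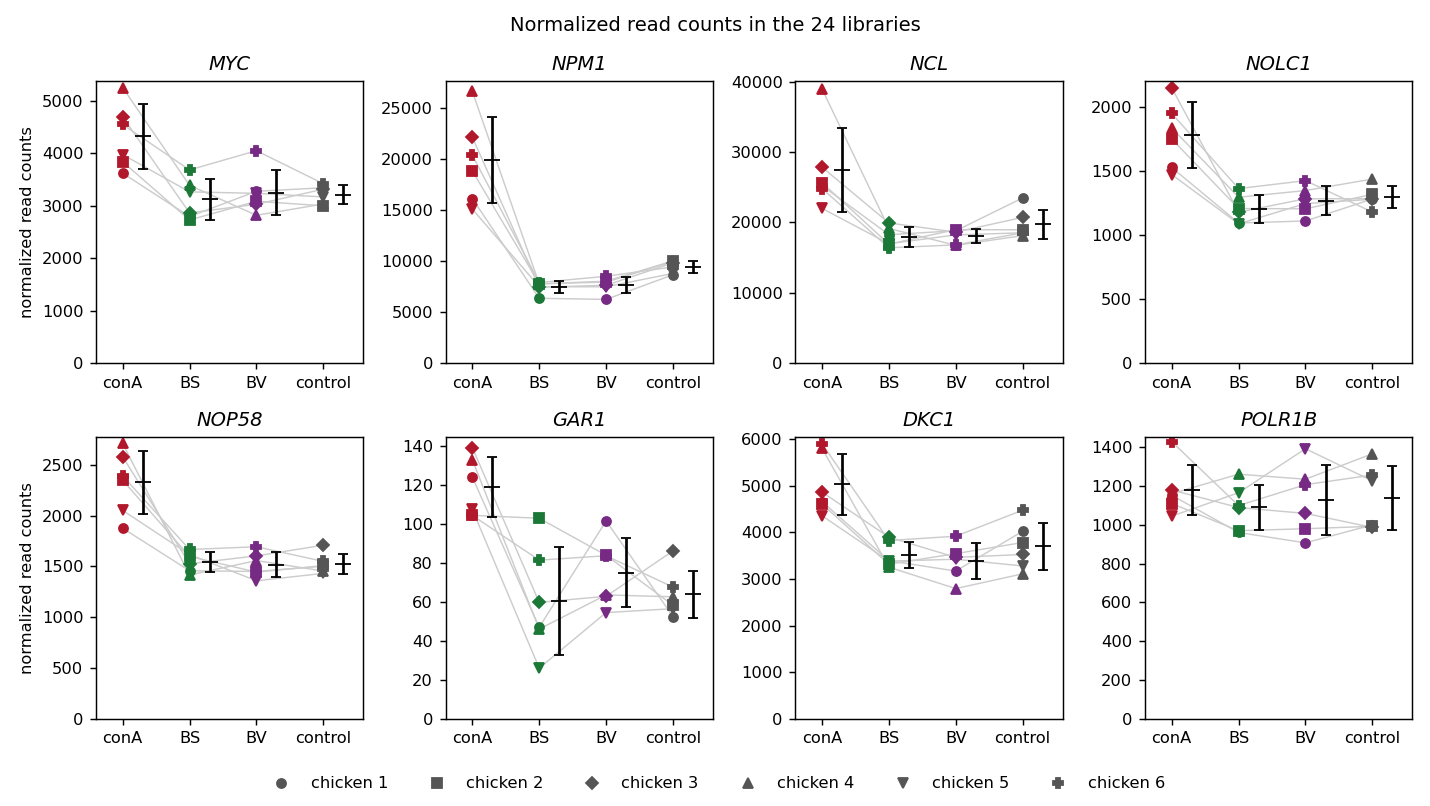
Normalized read counts (vertical axes, starting at 0) of 8 genes in the 24 libraries, by condition, with conA on the left and the control on the right. Symbols mark chickens, grey lines join the libraries of a chicken, and black bars give mean and SD of 6 libraries. The conA points of NPM1, NOP58, NOLC1 and GAR1 lie above all others of their panel, for NOLC1 and GAR1 by little. The conA points of POLR1B lie among the others except for chicken 6.

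The snoRNP proteins came next. Box C/D snoRNPs carry out methylation and box H/ACA snoRNPs pseudouridylation of ribosomal RNA, and 3 of the 5 genes passed, with a median log2 FC of 0.45 over all 5. NOP58 (ENSGALG00000008454), a core protein of box C/D snoRNPs, had 1876 to 2712 normalized counts after conA (median 2370.4) and 1431 to 1709 in the control (median 1505). The groups did not overlap, and NOP58 rose 1.53-fold (log2 FC 0.61 ± 0.10 SE, edgeR adjusted p = 0.00167). NOP58 and NPM1 were the only ones of the 12 genes that passed with each of the 6 chickens left out in turn in the fit without a block.

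DKC1, GAR1 and NHP2 belong to box H/ACA snoRNPs. DKC1 (ENSGALG00000005054), which encodes the pseudouridine synthase dyskerin, had 4357 to 5902 normalized counts after conA (median 4763) and 3109.8 to 4477 in the control (median 3654). It rose 1.36-fold in 6 of 6 chickens (log2 FC 0.45 ± 0.11 SE, edgeR adjusted p = 0.0416), although 1 control library reached into the conA range. GAR1 (ENSGALG00000020164) had 104 to 139 normalized counts after conA (median 116), against 52.3 to 86 in the control (median 60.3), without overlap. It rose 1.87-fold, the second largest FC of the 38, with the largest SE among the 12 genes that passed (log2 FC 0.90 ± 0.19 SE, edgeR adjusted p = 0.0133), and of the 38 genes it rests on the fewest reads.

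NHP2 (ENSGALG00000033666) did not pass. It had 256 to 568 normalized counts after conA (median 274) and 235 to 309 in the control (median 262), and only the conA libraries of chickens 3 and 4 lay above the highest control library (log2 FC 0.32 ± 0.19 SE, edgeR adjusted p = 0.521). NOP56 (ENSGALG00000032730), the partner of NOP58 in box C/D snoRNPs, was higher in 5 of 6 chickens, with a log2 FC of 0.44 ± 0.14 SE and an adjusted p of 0.163 (edgeR).

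None of the 3 subunits of RNA polymerase I passed in edgeR or DESeq2, none had an unadjusted p under 0.05, and their median log2 FC was 0.05. POLR1B (ENSGALG00000032273), the second largest subunit and part of the catalytic core, had 1045 to 1429.6 normalized counts after conA (median 1157) and 987 to 1367 in the control (median 1113). The groups overlapped, although chicken 6 had the highest conA value and lay above all control libraries, and the log2 FC was 0.05 ± 0.11 SE (edgeR adjusted p = 0.898). POLR1E (ENSGALG00000005395), the PAF53 subunit, had 784 to 1032 against 782 to 1054 normalized counts in conA-treated and untreated PBMCs (log2 FC 0.06 ± 0.11 SE, edgeR adjusted p = 0.862).

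POLR1C (ENSGALG00000010349), a subunit that RNA polymerases I and III share, was the single gene with a negative estimate. Its normalized counts were 667 to 1052 after conA (median 827), against 709 to 1159.8 in the control (median 900.0). It was lower after conA in 6 of 6 chickens, by 0.01 to 0.24 on the log2 scale, but the groups overlapped and it did not pass (log2 FC -0.11 ± 0.14 SE, edgeR adjusted p = 0.809, and 0.584 with the chicken as a block).

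Among the 13 factors of the small subunit, 2 passed after conA, and the median log2 FC was 0.24. NOP14 (ENSGALG00000015649), a component of the small subunit processome, had 1130.2 to 1869 normalized counts after conA (median 1517) and 916 to 1121 in the control (median 1038), without overlap. It rose 1.49-fold (log2 FC 0.57 ± 0.12 SE, edgeR adjusted p = 0.00889). UTP20 (ENSGALG00000011643), another component of the processome, had 2649 to 3409.9 against 2024 to 2499 normalized counts in conA-treated and untreated PBMCs, again without overlap.

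UTP20 rose 1.37-fold (log2 FC 0.46 ± 0.10 SE, edgeR adjusted p = 0.0203), and its ratio hardly varied between chickens, with 0.39 to 0.57 on the log2 scale. PNO1 (ENSGALG00000009093), an assembly factor of the pre-40S particle, had 380.0 to 597 normalized counts after conA (median 525) and 290.1 to 422 in the control (median 383). Its log2 FC was 0.48 ± 0.13 SE (edgeR adjusted p = 0.0809), and with the chicken as a block it passed (adjusted p = 0.039), as it did by DESeq2. NOL6 passed with the block but not without it (log2 FC 0.33, edgeR adjusted p = 0.15, and 0.028 with the block).

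NOB1 (ENSGALG00000000693), the endonuclease that cuts the end of the 18S ribosomal RNA, had the smallest FC among the factors of the small subunit. It had 1260.1 to 1607 normalized counts after conA (median 1411) and 1135 to 1615 in the control (median 1451), with a log2 FC of 0.01 ± 0.11 SE (edgeR adjusted p = 1). The sign of this value turned when chicken 3 or chicken 4 was left out, to -0.0094 and -0.034. The remaining 8 factors of the small subunit did not pass in either fit and had log2 FC between 0.14 for RRP12 and 0.42 for BYSL, which encodes the pre-40S factor bystin.

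Of the 13 factors of the large subunit, 3 passed, with a median log2 FC of 0.30. LYAR (ENSGALG00000015000), a zinc finger protein of the nucleolus, had 843 to 1196 normalized counts after conA (median 1009), against 574 to 895 in the control (median 650.1). It rose 1.49-fold in 6 of 6 chickens (log2 FC 0.57 ± 0.13 SE, edgeR adjusted p = 0.0258), with overlapping groups. EBNA1BP2 (ENSGALG00000009045), the counterpart of yeast Ebp2, had 616 to 927 against 476 to 598 normalized counts in conA-treated and untreated PBMCs, without overlap.

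EBNA1BP2 rose 1.46-fold (log2 FC 0.54 ± 0.11 SE, edgeR adjusted p = 0.0106). PES1, BOP1 and WDR12 form the PeBoW complex, which is needed for the large subunit, and the 3 genes differed in their values. PES1 (ENSGALG00000007778) rose 1.37-fold, with 1724 to 2548 normalized counts after conA and 1464 to 1794 in the control (log2 FC 0.45 ± 0.11 SE, edgeR adjusted p = 0.0266). BOP1 (ENSGALG00000053353) had 819 to 1339.7 against 821 to 1047 normalized counts in conA-treated and untreated PBMCs, was higher in only 3 of 6 chickens and did not pass (log2 FC 0.12 ± 0.12 SE, edgeR adjusted p = 0.731). WDR12 had a log2 FC of 0.16 ± 0.11 SE (edgeR adjusted p = 0.577).

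DDX18 (ENSGALG00000012147), a helicase known in yeast as Has1, had 1782 to 3667 normalized counts after conA (median 2305), against 1314 to 1945 in the control (median 1678). Its log2 FC was as large as that of EBNA1BP2 but it did not pass (0.56 ± 0.15 SE, edgeR adjusted p = 0.0583). The values after conA spread widely, with chicken 4 far above the other chickens. NOP2, a methyltransferase of the 28S ribosomal RNA, NOP16, a pre-60S factor, and RRP1B, a nucleolar protein, passed with the chicken as a block, with edgeR adjusted p of 0.02, 0.0195 and 0.0295, but not without it (0.0529, 0.0957 and 0.25). NOP2, NOP16 and DDX18 also passed by DESeq2.

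The last 4 factors of the large subunit did not pass in either fit. GNL3 (nucleostemin, a nucleolar GTPase) had a log2 FC of 0.29 and was higher after conA in 6 of 6 chickens. RRS1, which helps load the 5S ribosomal RNA, had one of 0.26 and was higher in 4 of 6, the exceptions being chickens 1 and 2. MRTO4, a placeholder of a stalk protein, and NIP7, a pre-60S factor, had log2 FC of 0.19 each.

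Over the 38 genes, the conA and control libraries did not overlap for 10 (2.27% of all genes, and 3.54% of the expressed ones). After conA, 20 were higher in 6 of 6 chickens (5.75% of all genes, and 9.17% of the expressed ones). The number that passed in the fit without a block depended on the chickens included. Without chicken 1 it was 14, and without chickens 2, 3, 4, 5 or 6 it was 2, 5, 6, 5 and 4. Of all 20266 genes, 446 passed with higher values with all chickens included. Without chickens 1 to 6 it was 470, 263, 262, 345, 299 and 258. With the chicken as a block, leaving out each chicken gave 12 to 16 of the 38 genes, and 463 to 635 of all genes with higher values.

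The size of the conA difference varied between chickens. The median log2 ratio of the 38 genes within chicken was 0.22, 0.27, 0.45, 0.52, 0.22 and 0.29 in chickens 1 to 6, and 32, 33, 36, 34, 26 and 35 of the 38 genes were higher. The median over the 10660 expressed genes stayed between -0.02 and 0.01 in all chickens. Chicken 4 held the highest conA value for 19 of the 38 genes and chicken 5 the lowest for 18.

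**Figure D3:**
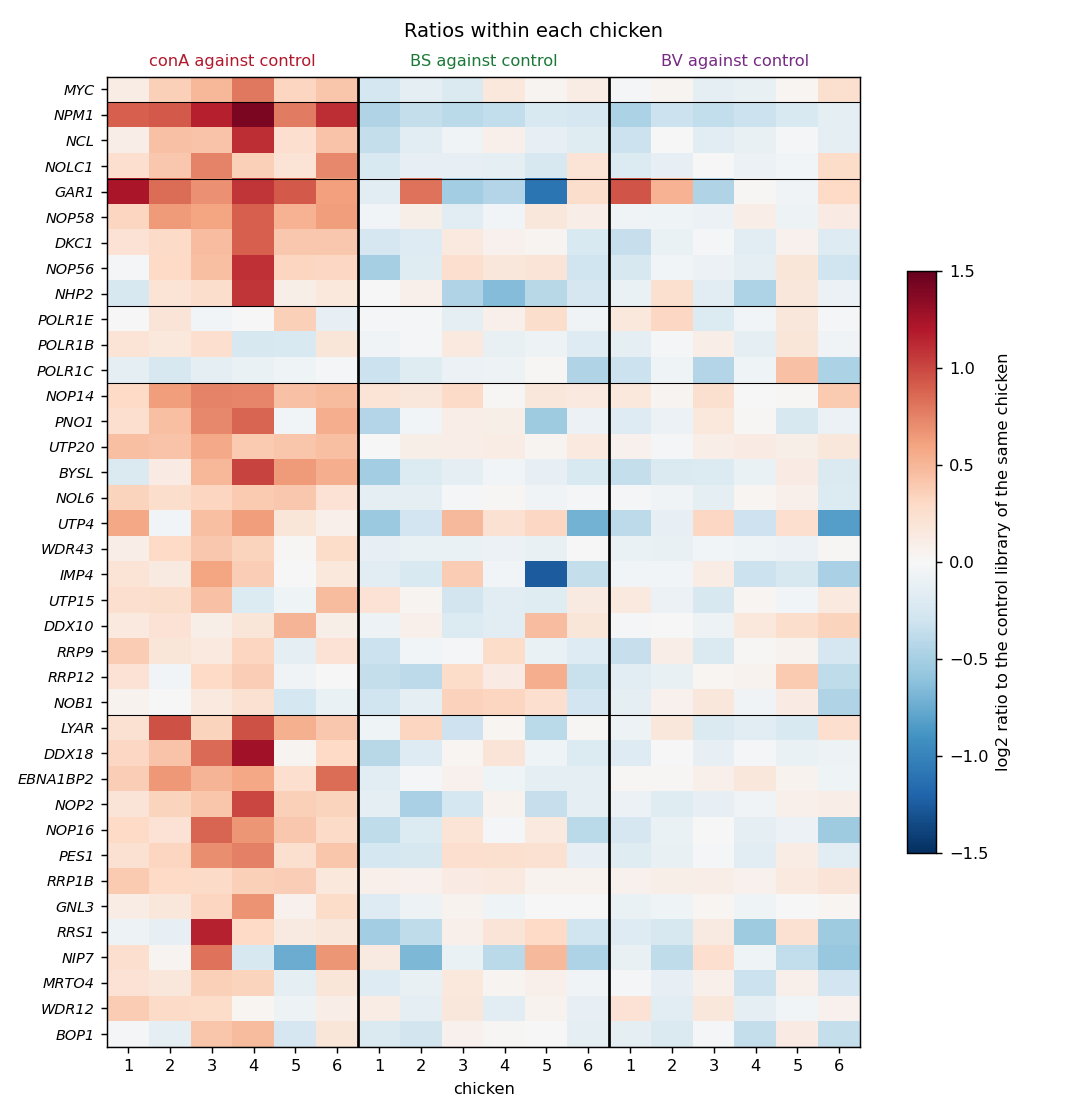
Log2 ratio of each of the 38 genes (rows, grouped by role) to the control library of the same chicken, for conA, BS and BV (blocks of 6 columns, from left to right). Red is higher and blue lower than the control: the conA columns are mostly red, many of the darkest of them in chicken 4, and the row of NPM1 is red for conA and blue for BS and BV in 6 of 6 chickens.

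Markers of other cells moved with the conA comparison. All 8 thrombocyte markers, among them ITGA2B, GP9, GP5 and TUBB1, had negative estimates after conA with a median log2 FC of -2.39. Of these, only F13A1 passed (log2 FC -1.85, edgeR adjusted p = 0.0239), and 5 passed with the chicken as a block. Their summed level was 679 to 11931 normalized counts after conA and 896 to 71379 in the control. In chicken 6 this sum was 1039.5 after conA and 896 in the control. In chickens 1 to 5 the log2 ratio of the sum was between -3.63 and -0.95. The 4 genes named first were lower after conA in 6 of 6 chickens, but in chicken 6 the remaining markers of the list were together higher.

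The other marker lists held few genes that passed. Of 13 T cell entries 1 passed (ZAP70, log2 FC 0.56), as did 1 of 13 monocyte or macrophage markers (TIMD4, log2 FC 2.04 at a mean of 15 normalized counts over all libraries), and none of 11 B cell, 7 erythrocyte and 5 heterophil markers (1, 1 and 0 at an unadjusted p under 0.05 in edgeR, and 0 in each list by DESeq2). The summed T cell markers differed by -0.25 to 0.19 on the log2 scale between conA and control within chicken. Other sums ranged more widely, from -0.78 to 0.79 for B cell and -0.73 to 0.49 for monocyte or macrophage markers. The ranges were -0.86 to 0.62 for erythrocyte and -1.48 to 0.72 for heterophil markers. The part of the thrombocyte and other markers in the conA differences of MYC and the ribosome genes was not tested in any chicken.

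**Figure D4:**
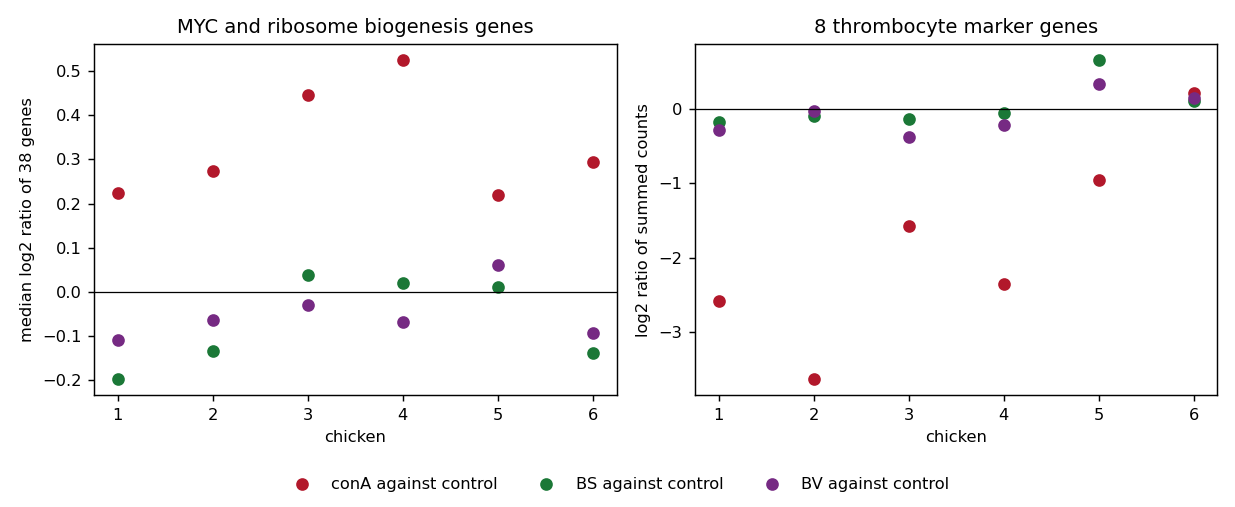
Median log2 ratio of the 38 genes (left) and log2 ratio of the summed counts of 8 thrombocyte markers (right) to the control library of the same chicken, by chicken, for conA, BS and BV. The conA medians of the 38 genes lie between 0.22 and 0.52 in all 6 chickens, while the thrombocyte ratio after conA is between -3.63 and 0.21.

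Other genes of the pathway were examined in 5 lists that do not hold the 38 genes. Of 120 such genes that were tested, 6 passed after conA, all higher, and the median log2 FC was 0.19 with 109 positive estimates. With the chicken as a block 20 passed. The 6 were WDR3 of the small subunit processome (log2 FC 0.42), GNL2, MAK16 and TMA16, which belong to large subunit assembly (0.41, 0.55 and 0.58), POLR2L, a small subunit that the 3 nuclear RNA polymerases share (0.52), and MPHOSPH6, a partner of the RNA exosome (0.42). By role, 1 of 13 further RNA polymerase I genes, 0 of 9 further snoRNP genes, 1 of 37 of the small subunit, 3 of 49 of the large subunit and 1 of 12 of the exosome passed. For the 9 snoRNP genes the count was 2 with the block and 1 by DESeq2, 4 had an unadjusted p under 0.05 in edgeR, and the median log2 FC was 0.19. The difference between these lists and the 38 genes was not tested.

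The genes of the ribosomal proteins themselves formed another list. Of 68 cytosolic ribosomal protein genes, 17 rose after conA and none fell, with a median log2 FC of 0.29 and 65 positive estimates, and 28 passed with the chicken as a block. RPL5, which joins the 5S ribosomal RNA, had 21774 to 30266 normalized counts after conA and 16721 to 18267 in the control (log2 FC 0.63 ± 0.10 SE, edgeR adjusted p = 0.000726). RPS6 had 18102 to 25885 against 13251 to 17910.2 normalized counts in conA-treated and untreated PBMCs (log2 FC 0.60 ± 0.11 SE, edgeR adjusted p = 0.00254). Where ribosomal protein genes have close copies, reads may be shared between entries, and the counting rule for such reads was not stated in the sources at hand.

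Partners and regulators of MYC were examined as a further list. None of 17 genes of the MYC network passed after conA (edgeR, adjusted p under 0.05), and their median log2 FC was -0.09, with 5 positive estimates, while 4 had an unadjusted p under 0.05 and DESeq2 called 1. MAX, the partner with which MYC binds DNA, had a log2 FC of -0.07 ± 0.11 SE (edgeR adjusted p = 0.832). With the chicken as a block FBXW7, which marks MYC for degradation, and FUBP1, which binds upstream of MYC, passed with higher values (log2 FC without the block 0.59 and 0.38), and MXD1, an antagonist that also pairs with MAX, with a lower one (-0.75).

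Of 13 textbook MYC targets outside ribosome assembly, 2 rose after conA, HSPD1, a chaperonin of mitochondria (log2 FC 0.69, edgeR adjusted p = 0.0175, and 0.0967 with the chicken as a block), and NME1, a nucleoside diphosphate kinase (log2 FC 1.94, at a mean of 31.4 normalized counts over all libraries). ODC1, of polyamine synthesis, had a log2 FC of 0.42 and LDHA, of glycolysis, of -0.05, and neither passed. Of 24 proliferation genes, MCM2, part of the replicative helicase, was the 1 that passed in edgeR (log2 FC 0.49, adjusted p = 0.033), 7 had an unadjusted p under 0.05, and DESeq2 called 4 higher (MCM2, MCM5, RRM2 and TK1). TOP2A, CDK1 and PCNA had log2 FC of 0.47, 0.26 and 0.09 and did not pass.

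**Figure D5:**
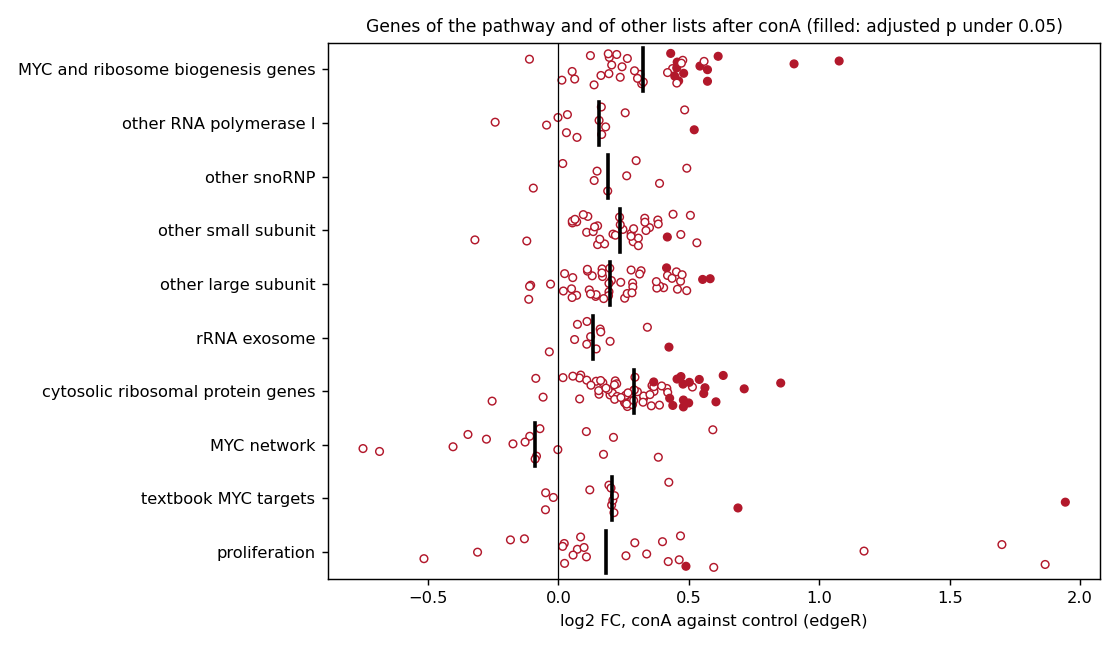
Log2 FC of conA against control (horizontal axis) for each gene of 10 lists (rows), with filled points for genes that passed and a black line for the median of the list. The medians are 0.32 for the 38 genes, 0.29 for the ribosomal protein genes and -0.09 for the MYC network. Vertical placement within a row has no meaning.

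After BS and after BV, none of the 38 genes passed in the fit without a block. In that fit, 2 had an unadjusted p under 0.05 in edgeR with BS and 1 with BV, all lower, against 637 and 597 of all 20266 genes. DESeq2 called 0 of the 38 as well. With the chicken as a block, 7 had an unadjusted p under 0.05 in edgeR with BS (6 lower and 1 higher), against 2195 of all genes. With BV it was 8 (6 lower and 2 higher), against 2203. Of all genes tested, 0% passed with BS and 0.00493% with BV in the fit without a block. The median log2 FC was -0.06 with BS and -0.05 with BV, with 8 and 9 positive estimates among the 38. MYC had 2729.5 to 3684 normalized counts after BS, 2819 to 4051 after BV and 3000.3 to 3422 in the control, with log2 FC of -0.04 ± 0.09 SE and 0.02 ± 0.09 SE (edgeR adjusted p = 1 for both). It was higher in 3 of 6 chickens with either strain.

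NPM1 was the exception. Its normalized counts were 6355 to 7902 after BS (median 7626) and 6249 to 8518 after BV (median 7786), against 8665 to 10022 in the control (median 9636). The libraries of either strain lay below all control libraries, and NPM1 was lower in 6 of 6 chickens, by 0.23 to 0.45 on the log2 scale after BS and by 0.15 to 0.47 after BV. In the fit without a block the log2 FC was -0.34 ± 0.08 SE for BS and -0.30 ± 0.08 SE for BV, with edgeR adjusted p of 0.636 and 0.912. With the chicken as a block NPM1 fell after both strains, to 0.787-fold and 0.808-fold of the control (log2 FC -0.35 and -0.31, edgeR adjusted p = 3.21e-05 and 0.000226), and in this fit 1.04% of all genes passed with BS and 0.913% with BV. When the conA libraries were added to the blocked fit, NPM1 missed the threshold (adjusted p = 0.0514 for BS and 0.106 for BV).

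No other gene of the 38 passed with the block after either strain, and NPM1 kept its call there with each chicken left out. It was also the only gene of the 38 whose libraries did not overlap with the control. Of all genes this held for 0.128% with BS and 0.0938% with BV (0.15% and 0.103% of the expressed ones). WDR43, of the small subunit processome, and BYSL were also lower after BS in 6 of 6 chickens, and NOP16 after BV. These groups overlapped and none of the 3 passed. Lower in 6 of 6 chickens were 2.27% of all genes with BS and 2.62% with BV (3.52% and 4.06% of the expressed ones). RRP1B was higher in 6 of 6 chickens with both strains and NOP14 with BS, by at most 0.28 on the log2 scale, and neither passed. Of all genes, 2.57% were higher in 6 of 6 chickens with BS and 3.15% with BV (3.86% and 4.76% of the expressed ones). GAR1 varied widely between chickens, with 25.9 to 103 normalized counts after BS and 54.4 to 101 after BV, against 52.3 to 86 in the control, and its lowest value, 14 reads, came from the BS library of chicken 5, the library with the fewest reads of all. The comparisons of BS and of BV share their control libraries.

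Sums of erythrocyte and of B cell markers were higher with both strains. The summed level of 7 erythrocyte markers exceeded that of the control in each of 6 chickens, by 0.08 to 1.54 on the log2 scale after BS and by 0.01 to 1.52 after BV, and that of 11 B cell markers by 0.08 to 0.34 and by 0.05 to 0.42. Without a block no marker of either list passed in edgeR (at an unadjusted p under 0.05, 0 erythrocyte and 3 B cell markers with BS, and 1 and 3 with BV), DESeq2 called 1 B cell marker (CD72) with each strain, and single erythrocyte markers had log2 FC down to -0.85 with BS and -1.91 with BV. With the chicken as a block, 3 erythrocyte markers passed after BS and 2 after BV, and 3 B cell markers after each, all higher. Their part in the lower NPM1 values was not tested. The 68 ribosomal protein genes held no gene that passed after either strain, with or without the block in edgeR or by DESeq2. At an unadjusted p under 0.05, it was 1 gene with each strain in edgeR without the block, 12 with BS and 11 with BV in edgeR with the block, and 0 with BS and 2 with BV by DESeq2. Their median log2 FC was -0.08 for both. Among the 120 other pathway genes none passed without the block (3 with BS and 2 with BV at an unadjusted p under 0.05, and 0 by DESeq2), and their medians were -0.03 and 0.00. With the block EXOSC2, a subunit of the RNA exosome, fell after BS (log2 FC -0.30, edgeR adjusted p = 0.0168), no gene of the 120 passed after BV, and 9 had an unadjusted p under 0.05 with each strain. In the blocked fit, 2195 of all 20266 genes had such a p with BS and 2203 with BV. Of the 13 textbook MYC targets none passed without the block (3 with BS and 1 with BV at an unadjusted p under 0.05, and 0 by DESeq2), and with it ODC1 fell after both strains (log2 FC -0.41 and -0.45) and HSPD1 after BS (-0.35).

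BS and BV were also compared with each other. None of the 38 genes passed, with or without the chicken as a block (0% of all genes in both fits), none had an unadjusted p under 0.05 in the edgeR fit without a block, and DESeq2 called 0. The log2 FC of BS against BV was -0.04 ± 0.08 SE for NPM1 and -0.06 ± 0.09 SE for MYC. The median over the 38 genes was -0.03.

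ConA was also compared directly with the bacteria. Of the 38 genes, 19 were higher after conA than after BS (edgeR, 3.25% of all genes, 5.18% of the expressed ones, and 3.74% in either direction). Compared with BV it was 17 (2.87% of all genes, 4.48% of the expressed ones, and 3.18% in either direction). None was lower (edgeR and DESeq2, also at an unadjusted p under 0.05). The median log2 FC was 0.42 in both comparisons. The libraries did not overlap for 15 genes with BS (2.67% of all genes, and 4.34% of the expressed ones). With BV it was 12 genes (2.61% of all genes, and 4.22% of the expressed ones). These comparisons share the conA libraries with the one against the control.

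Without chicken 3 the number that passed was 11 for BS and 7 for BV, and without chicken 4 it was 8 for BV. Of all genes, 394, 353 and 455 passed with higher values in these fits, against 658 for BS and 582 for BV with all chickens. NPM1 was 2.67-fold higher after conA than after BS (log2 FC 1.42 ± 0.12 SE, edgeR adjusted p = 2.88e-08) and 2.61-fold higher than after BV (1.38 ± 0.12 SE, edgeR adjusted p = 4.02e-08). In the fits without a block, BYSL, DDX18, NOP16, NOP2, NOP56, PNO1 and WDR43 passed in both comparisons but not in that of conA with the control. The comparison with the control was fitted on 12 libraries and those with the strains on 18. Against the control, NOP16, NOP2 and PNO1 passed with the chicken as a block. All of these genes passed there with the block in 1 fit of all 24 libraries. Whether the FC differ between these comparisons was not tested. The 3 subunits of RNA polymerase I did not pass against either strain, with log2 FC between 0.01 and 0.12.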

How the data were processed

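Total RNA of each pooled culture was turned into stranded cDNA libraries and sequenced. The submitters' processing notes name bcl2fastq 2.20, FastQC 0.11.5, STAR 2.7.3, R 3.6.1 and DESeq2 1.24.0 and the chicken genome GRCg6a. The authors deposited, for each library, raw counts of reads per gene (whole numbers) together with a normalized signal per gene, which is the count divided by a size factor of the library. No source at hand states the counting tool, whether it used strand, or the release of the gene models, so reads of overlapping or antisense genes and of close copies may be shared. The normalized signal gave the levels and the ratios within chicken, and the counts gave all tests. No column of other samples was used (0).

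Genes with at least 2 reads over the 24 libraries (20266 of 23910) were tested with edgeR 4.0.16 (trimmed mean of M values scaling, robust quasi-likelihood fit and test, Benjamini-Hochberg adjustment over all of them) in R 4.3.3. ConA against control was fitted on 12 libraries, and the comparisons among control, BS and BV and among conA, BS and BV on 18 each. These fits had no chicken term because the study's methods name none for their DESeq2 tests. For chosen genes the study also compared normalized counts with paired t-tests or Wilcoxon rank-sum tests. The SE is the absolute log2 FC divided by the root of the F statistic. Ratios within chicken used log2 of normalized counts plus 1. Tables and figures were made with Python 3.11.15, pandas 2.3.3, numpy 2.4.6 and matplotlib 3.10.9. The test script was checked on simulated counts. For conA against control it called 65 of 100 genes changed 2-fold and 91 of 100 changed 4-fold. For BS against control it called 75 and 89. Smaller changes were not simulated.

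Libraries with the same replicate number were taken to come from the same chicken, which the sample labels do not state. Over 13024 genes their deviations from the group means correlated at 0.386 or more between BS and control. For BS and control libraries with different numbers it reached up to 0.567, with a median of -0.20. Between BV and control the correlation was 0.506 or more, and with different numbers up to 0.565, with a median of -0.27. Between conA and control it was over 0.1 in 4 of 6 chickens, the exceptions being chicken 3 (-0.03) and chicken 5 (0.08). The conA libraries of both were numbered apart from their other libraries, as were those of chickens 4 and 6 (0.36 and 0.62). For chickens 3 and 5 these values thus do not show that conA and control libraries come from the same chicken. The conA ratios within chicken, the counts of chickens and the blocked conA fits rest on this pairing. Libraries of conA and control with different replicate numbers reached up to 0.504, with a median of -0.09. The fit with the chicken as a block was therefore made as an alternative, beside DESeq2 1.42.0, other scalings, another filter, all libraries in 1 fit, chickens 1 and 2 or 3 to 6 only, and each chicken left out.

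The 38 genes and the other lists were chosen with earlier results of these data known, so no test over a list as a whole was made. Genes described singly were MYC and, per other role, the 3 with the largest and the 1 with the smallest absolute log2 FC after conA among those that averaged at least 50 normalized counts, and per other pathway list at most the 2 largest that passed. All further genes named singly (such as PES1, NOP2, GNL2, MAX and MXD1) were added after their values were seen. Values rest on 12170873 to 31242160 reads per library, and the spread given is between chickens.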

Additional observations from a re-analysis of the deposited data

Results flagged for a closer look

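In 15 of 152 groups of 6 libraries (38 genes under 4 conditions), 1 library lay far from the other 5 by Dixon's test, which chance does in about 1 in 20 groups. The groups share the same 24 libraries and are not independent, so whether 15 exceeds that share was not tested. Of these, 7 were the conA library of chicken 4, each time the highest of its group. Its normalized counts were 38949 for NCL, 6923 for NOP56, 568 for NHP2, 1163 for BYSL, 2279 for NOP2, 5839 for GNL3 and 3667 for DDX18. The conA library of chicken 6 stood apart for POLR1B, with 1429.6 normalized counts.

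In the bacterial groups, the distant libraries were those of chicken 6 for MYC after BV (4051), of chicken 1 for NPM1 after BS (6355) and of chicken 5 after BV for RRS1 (711) and MRTO4 (886). In the control they were chicken 1 for NOP56 (4301) and BYSL (1020.3) and chicken 3 for IMP4 (268). The conA ratio of RRS1 was negative in chickens 1 and 2 (-0.08 and -0.12 on the log2 scale) and positive in chickens 3 to 6 (0.13 to 1.15), a difference of 0.54 between the means of the 2 sets. In the edgeR interaction test it did not pass (0.49 ± 0.30 SE, adjusted p = 1).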

How the results depend on the processing

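The number of the 38 genes that passed after conA was 12, and 0 with the added limit on log2 FC, 6 when libraries were scaled by total counts only, 22 with the replicate block in 1 fit of all 24 libraries (added after seeing the data), 0 in chickens 1 and 2 and 7 in chickens 3 to 6. Of all 20266 genes, 446 passed with higher values without the block, 312 with total counts only and 1286 with the block in 1 fit. In chickens 1 and 2 it was 25 of all genes, and in chickens 3 to 6 it was 388. Leaving out 1 chicken gave 2 to 16 of the 38, with and without the block (258 to 635 of all genes). With BS and with BV the count of 0 became 1 with the replicate block (0 to 1 when a chicken was left out, and 0 with the block in 1 fit of all libraries). For conA against BS the number that passed was 19, and 0 with the limit on log2 FC, 1 in chickens 1 and 2 and 11 to 27 without 1 chicken. For conA against BV it was 17, and under the same settings 0, 1 and 7 to 27. With the block in 1 fit of all libraries it was 27 (1272 of all genes passed with higher values). These counts of the 38 include genes that did not pass in the fit without a block. In the separate fits of all 6 chickens, the block gave 17 genes that passed for conA against control, 23 against BS and 24 against BV. Over all genes, the number with higher values moved from 446 to 714, from 658 to 1186 and from 582 to 1089. At an unadjusted p under 0.05 in edgeR, the block moved the count from 2 to 7 for BS against control. For BV against control it moved from 1 to 8. The counts over all genes moved from 637 to 2195 and from 597 to 2203. The median log2 FC of the 38 genes kept its direction after conA under every setting, between 0.29 and 0.43. After conA, 4 of the 38 genes had negative estimates in chickens 1 and 2 and 3 in chickens 3 to 6, against 1 in all chickens. Among the genes picked by the stated rule, signs turned for POLR1B (-0.0086) and NOB1 (-0.00098) in chickens 3 to 6. They also turned for BOP1 (-0.050) in chickens 1 and 2 and for NOB1 without 1 chicken (-0.034 to 0.070). These values were all close to 0. NCL lost its call after conA with edgeR's own filter on low counts and with relative log expression scaling. With scaling by total counts only, MYC, DKC1, NOLC1, NOP14, PES1 and UTP20 lost theirs. Causes were not tested, except that fits of 2 or 5 chickens hold fewer samples. GAR1 rests on the fewest reads, at least 14 in a library.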
